A study of Mus musculus with 130 samples.

Results

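Metallothioneins and membrane metal transporters set how much zinc, copper and manganese a liver cell holds, and 8 of their genes were followed here through mouse livers on different iron intakes and genetic backgrounds. The members were taken by gene symbol from a list of 2 metallothioneins and 6 transporters: Mt1, Mt2, Slc30a1, Slc30a10, Slc39a4, Slc39a5, Atp7b and Slc31a1. All 8 had a row in both deposited gene tables, out of 36077 genes in the tables together. The rule uses no measured value.

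Liver RNA was sequenced from male mice in a diet study and a strain panel that share no animal. In the diet study, C57BL/6J mice received chow, a sufficient-iron diet of 50 ppm, an elevated-iron diet of 500 ppm, 2% carbonyl iron (20000 ppm), or 2% carbonyl iron with cellulose as the fibre source, with 3 mice per diet. In the panel, 114 inbred strains were fed chow for 4 weeks and a high-iron diet of 2% carbonyl iron for 6 weeks. The panel held 56 BXD strains (C57BL/6J by DBA/2J), 20 AXB/BXA strains (A/J by C57BL/6J), 4 BXH strains, 3 CXB strains and 31 other inbred strains, each as 1 mouse except 129X1/SvJ with 2. Every panel mouse therefore received iron, no strain had a mouse on a control diet, and a strain's level is the level of 1 animal. Ages, and the time the diet study mice spent on their diets, are not given in the sources used here. The diet and panel tables were made separately, so no test was run across them.

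Metallothioneins are short cytosolic proteins rich in cysteine that bind zinc and copper. In hepatocytes the zinc sensor MTF1 binds metal response elements in the promoters of Mt1, Mt2 and Slc30a1 and raises their transcription when free zinc rises, and glucocorticoids and inflammatory cytokines also raise the metallothioneins. Slc30a1 exports zinc from the cell and Slc30a10 exports manganese. Slc39a4 and Slc39a5 carry zinc into cells, Slc31a1 takes up copper, and Atp7b, the gene mutated in Wilson disease, moves copper into the secretory pathway and bile.

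The coding sequences of Mt1 and Mt2 are shown because their cysteine codons, in capitals, make the metal-binding residues. They are read 5′ to 3′ from the GENCODE M21 transcripts Mt1-201 and Mt2-201.
Mt1: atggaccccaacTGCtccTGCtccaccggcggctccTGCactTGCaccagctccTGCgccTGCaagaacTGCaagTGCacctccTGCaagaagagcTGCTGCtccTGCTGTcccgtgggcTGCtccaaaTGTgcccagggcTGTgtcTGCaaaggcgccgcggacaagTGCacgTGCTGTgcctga
Mt2: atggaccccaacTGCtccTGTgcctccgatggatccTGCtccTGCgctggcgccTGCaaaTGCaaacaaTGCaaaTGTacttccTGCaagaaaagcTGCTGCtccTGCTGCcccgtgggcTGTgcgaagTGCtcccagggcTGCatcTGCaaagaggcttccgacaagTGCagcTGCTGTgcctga
Each encodes 61 amino acids, of which 20 are cysteine. The cysteine codons stand at the same 20 positions in both, 16 of them written TGC and 4 TGT in each gene. Over the whole length 148 bases, or 79.6%, were identical. The transcripts shared no stretch of 31 bases, the k-mer length used here to look for reads that could be assigned to either gene.

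The promoter windows of Mt2, Mt1, Slc30a1 and Slc30a10 are shown because the first 3 of these genes varied together across strains, with the same motif search beside them for a manganese exporter. Each window is the 250 bases before the RefSeq start in GRCm38.p6, + strand. Capitals mark matches on either strand to TGCACNC and TGCGCNC, the cores of the metal response element.
Mt2, chr8:94172368-94172617, 3 matches: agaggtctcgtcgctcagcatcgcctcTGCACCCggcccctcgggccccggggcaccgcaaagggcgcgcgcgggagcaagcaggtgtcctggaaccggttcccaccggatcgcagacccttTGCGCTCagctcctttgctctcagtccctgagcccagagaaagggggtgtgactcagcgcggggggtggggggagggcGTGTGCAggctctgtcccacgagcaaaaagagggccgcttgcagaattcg
Mt1, chr8:94178839-94179088, 1 match: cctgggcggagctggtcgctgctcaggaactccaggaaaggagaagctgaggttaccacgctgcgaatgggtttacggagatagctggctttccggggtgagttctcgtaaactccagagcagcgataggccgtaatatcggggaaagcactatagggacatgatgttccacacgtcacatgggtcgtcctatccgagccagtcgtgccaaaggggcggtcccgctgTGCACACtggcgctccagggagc
Slc30a1, chr1:191906531-191906780, 1 match: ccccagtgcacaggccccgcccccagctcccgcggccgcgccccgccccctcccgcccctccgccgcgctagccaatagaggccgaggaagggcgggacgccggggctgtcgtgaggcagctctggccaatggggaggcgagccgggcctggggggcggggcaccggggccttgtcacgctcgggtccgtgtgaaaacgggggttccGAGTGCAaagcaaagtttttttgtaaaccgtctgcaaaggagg
Slc30a10, chr1:185454598-185454847, 3 matches: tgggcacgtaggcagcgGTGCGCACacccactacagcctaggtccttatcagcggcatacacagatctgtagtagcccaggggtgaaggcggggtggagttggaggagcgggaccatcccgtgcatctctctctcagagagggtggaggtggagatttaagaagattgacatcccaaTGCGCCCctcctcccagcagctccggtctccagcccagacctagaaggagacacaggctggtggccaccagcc
In Slc30a10, 2 of the 3 matches overlap. Windows not shown held 1 match in Atp7b, 1 in Slc39a5 (in 1 of its 2 windows) and 0 in Slc31a1. Of 32851 such windows over the genome, 21.4% held at least 1 match and 1.26% held at least 3. In GENCODE, Mt1-201 starts 7 bases before the RefSeq start of Mt1, and its other transcripts start 122 and 152 bases after it. With the 50 bases after the start included, the Mt1 window held 3 matches, that of Mt2 4, that of Slc30a1 2 and that of Slc30a10 3, against 1.97% of all such windows with at least 3. A window was found for 7 of the 8 members, and Slc39a4 had none. A match is a string of letters, not a measured binding site.

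In GRCm38, Mt2 (chr8:94172664-94173568, + strand) and Mt1 (chr8:94179082-94180327, + strand) are neighbours with 5513 bases between them. Atp7b lies on the same chromosome at chr8:21992785-22060305, - strand. Slc30a10 (chr1:185454848-185468762) and Slc30a1 (chr1:191906767-191913247) are on the + strand of chromosome 1, Slc39a4 is at chr15:76612383-76617384 and Slc39a5 at chr10:128395931-128401229, both - strand, and Slc31a1 is at chr4:62360727-62391769, + strand. The measurements cover whole genes, exons of all transcripts together. Of the 31-base stretches in Mt2 transcripts, 58.1% also occur in Gm45774, an antisense gene, or other transcripts. The shares were 8.38% for Slc30a1, with the antisense gene 1700034H15Rik, and 8.94% for Slc30a10, mostly with the lincRNA Gm2061. None of these 3 partners had a row in the tables. The library kit kept strand, but whether the counting used it is not given in the sources used here, so reads from the opposite strand cannot be told apart from those of the member.

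Libraries held 10420708 to 20357169 estimated counts in the diet study and 9407880 to 20572879 in the panel. Hepatocyte markers were at a summed 84606 to 107151 CPM (counts scaled to a fixed library total) in every diet study mouse. Exocrine pancreas markers, which would bring Slc39a5 with them, summed to at most 0.770 CPM there, with 3 of the 7 at 0 in all diet study mice. In the panel libraries their sum had a median of 0.399 CPM and a maximum of 9.68 CPM. Their part in the Slc39a5 levels of the panel was not tested. The library labelled 500 ppm mouse 2 stood apart from its group: on the first principal component of all genes, which held 48.3% of the variance, it lay at -0.78 and the other 500 ppm mice at 37.2 and 35.01. Diet comparisons that rest on it are given with and without it. In the panel, the library labelled BXD65/RwwJ had a summed level of 4 Y-linked genes of 3.90 CPM, against 118 to 324 CPM in the other 114 libraries of these male mice. Without it, 3 members were still called between BXD and AXB/BXA strains, 21 member pairs were still correlated, and relations with 6 reference genes went from 30 to 31.

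The members covered a wide range of abundance. By group mean, Mt1 and Mt2 were the most abundant members on each of the 5 diets in TPM, a unit corrected for transcript length and library total in which genes can be compared, and Slc39a5 was the least. In the panel the median TPM over 114 strains was 1030 for Mt1, 719 for Mt2, 40.9 for Slc31a1, 30.3 for Slc39a4, 10.4 for Atp7b, 9.02 for Slc30a1, 5.98 for Slc30a10 and 1.21 for Slc39a5. Neighbours in that order overlapped in their ranges over strains. The other metallothionein genes, Mt3 and Mt4, were at or near 0 in both studies.

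Both metallothioneins were highest in the groups fed 2% iron. Mt1 stood at 926, 296 and 306 TPM in mice 1, 2 and 3 on 2% iron, at 1749, 522 and 538 TPM with cellulose, and at 47.6, 94.3 and 138 TPM on 50 ppm. On chow the mice had 300, 201 and 219 TPM, and on 500 ppm 94.6, 562 and 27.6 TPM. Mouse numbers are names only and pair no animals. All mice on either 2% diet lay above all mice on 50 ppm, and so did all chow mice, the highest of which overlapped the lower 2% mice. On 500 ppm, mouse 2 stood above every chow mouse while its group mates lay within or below the range of the 50 ppm mice.

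Mt2 had nearly the same order of mice. It stood at 580, 196.4 and 263 TPM on 2% iron, at 1357, 384.04 and 447 TPM with cellulose, at 24.9, 60.2 and 64.6 TPM on 50 ppm, at 241, 92.6 and 90.2 TPM on chow, and at 64.2, 284 and 7.48 TPM on 500 ppm. Within 2% iron, 2% iron with cellulose and chow, mouse 1 was the highest for both genes, and in 500 ppm mouse 2 was.

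**Figure D1:**
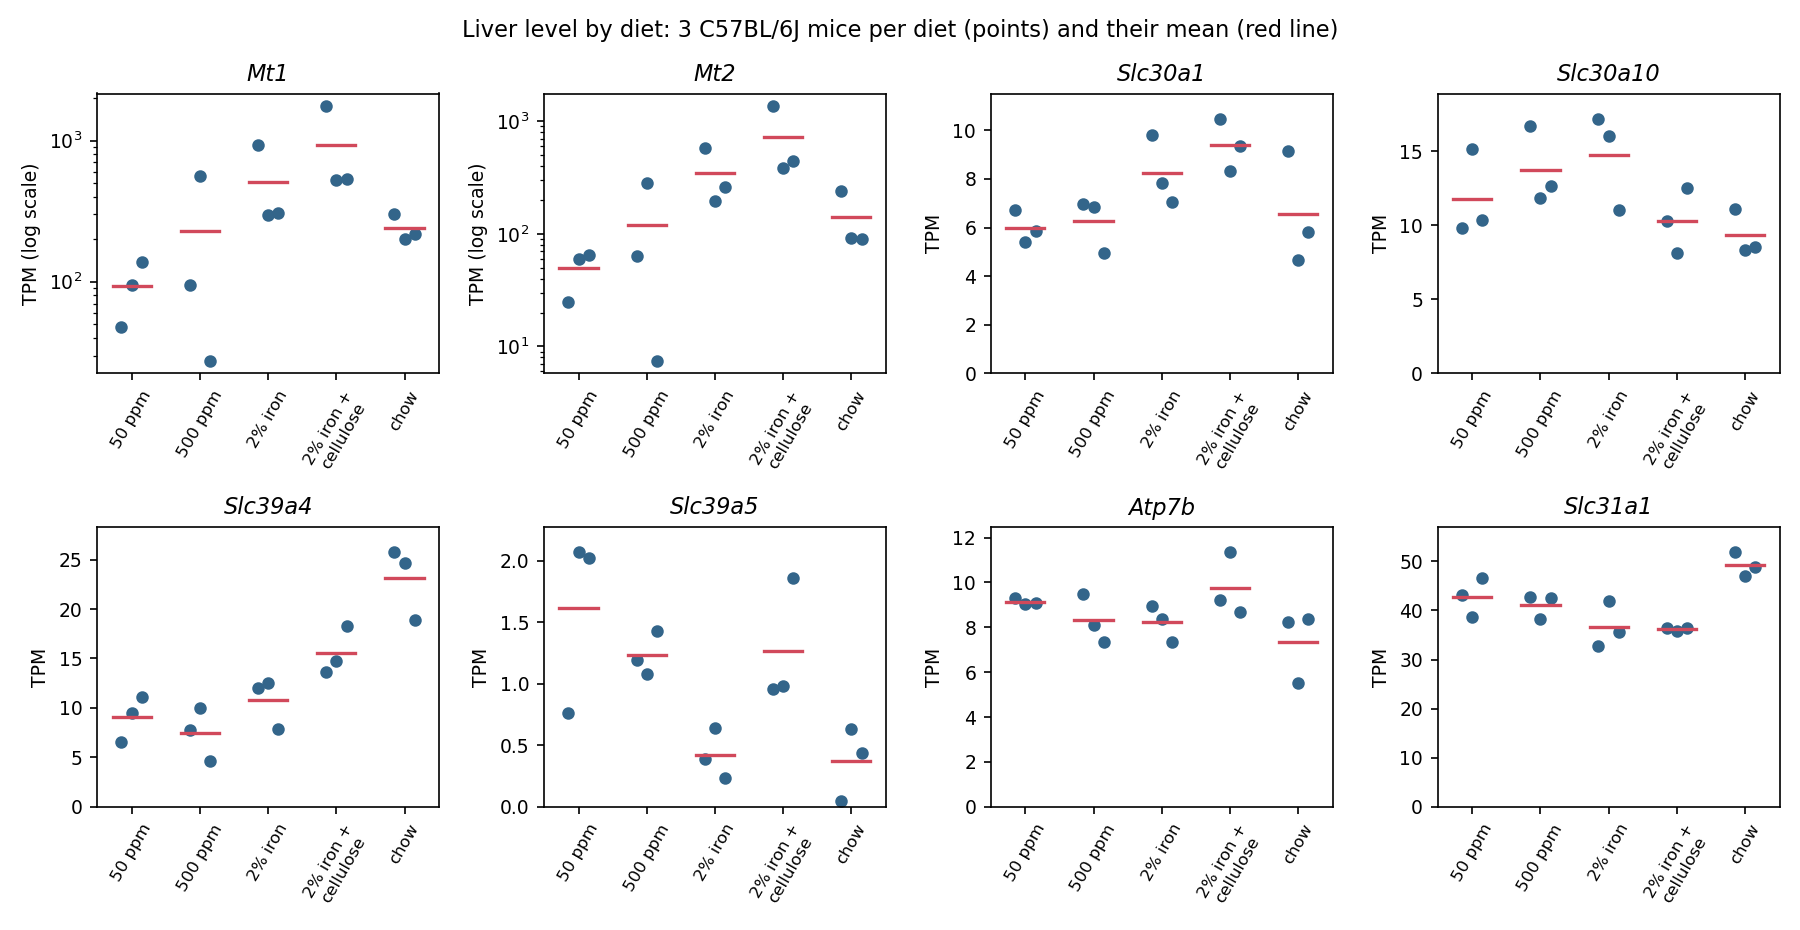
Level of each member in TPM (vertical axis) in each diet study mouse (points), by diet, with the group mean as a line. Mt1 and Mt2 spread several-fold within most diets, whereas Slc31a1 and Atp7b stay close together within each diet.

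For 2% iron against 50 ppm, 1 of the 8 members passed edgeR's quasi-likelihood test at a Benjamini-Hochberg adjusted p under 0.05 over 13560 genes, where 15.7% of all genes did and 7.17% were called lower. In CPM, 5 members had groups that did not overlap, against 37% of all genes. The median log2 fold change of the members was 0.23, and that of all genes 0.01. Mt1 averaged 180 ± 126 CPM on 2% iron and 33.4 ± 14.4 CPM on 50 ppm (SD, n = 3 each), a log2 difference of 2.42 (SE 0.86) with an adjusted p of 0.0723. Mt2 averaged 89.9 ± 52.9 and 13.6 ± 5.31 CPM, a log2 difference of 2.72 (SE 0.90, adjusted p 0.0568). Both differences were large and neither passed the threshold. Both passed it with no filter on low counts, with DESeq2 and with the 2 groups fitted alone, and also without 500 ppm mouse 2 (adjusted p 0.0152 for Mt1 and 0.0195 for Mt2) or 500 ppm mouse 3 (0.0317 and 0.0191), although the 6 mice compared stayed the same.

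The member called in that comparison was Slc39a5, which fell by 1.65 on the log2 scale (SE 0.52, adjusted p 0.0453). Its levels were 0.386, 0.642 and 0.235 TPM on 2% iron and 0.761, 2.07 and 2.02 TPM on 50 ppm. These rest on 8, 12 and 5 estimated counts against 14, 26 and 35, so counting error is large. The call held in 12 of 21 alternatives. It was lost without 2% mouse 1 (adjusted p 0.117) or 3 (0.152), without 50 ppm mouse 2 (0.103) or 3 (0.137), and, with the same 6 mice compared, without 500 ppm mouse 1 (0.0559) or 3 (0.0544), cellulose mouse 2 (0.0586) or chow mouse 2 (0.0547).

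Among the exporters, Slc30a1 stood at 9.80, 7.84 and 7.06 TPM on 2% iron and at 6.71, 5.40 and 5.85 TPM on 50 ppm. The groups did not overlap, and its log2 difference of 0.46 had an adjusted p of 0.116. Slc30a10 stood at 17.2, 16.02 and 11.04 TPM on 2% iron and 9.83, 15.1 and 10.4 TPM on 50 ppm, with overlapping groups (log2 difference 0.26, adjusted p 0.392). The zinc importer Slc39a4 differed by 0.20 (adjusted p 0.635). For the copper genes, Atp7b differed by -0.18 (adjusted p 0.362) and Slc31a1 by -0.29 (adjusted p 0.0658). Slc31a1 passed the threshold without 2% mouse 2 (adjusted p 0.0479), without 50 ppm mouse 2 (0.033) and with DESeq2 (0.0282).

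Of 41 further genes of zinc, copper and manganese handling, 35 were tested and 9 passed in 2% iron against 50 ppm, 6 higher and 3 lower, with a median log2 difference of -0.01. Slc40a1, the iron exporter ferroportin, rose by 1.54, Slc11a1, a divalent metal transporter of phagocytes, by 1.42, Atp7a, the copper pump related to Atp7b, by 0.80, the metalloreductase Steap4 by 0.68, the copper-carrying ferroxidase Cp by 0.60 and Slc39a14, which imports zinc, iron and manganese, by 0.51. The metalloreductases Steap2 and Steap3 fell by 0.66 and 0.63, and the copper-zinc superoxide dismutase Sod1 fell by 0.37. The 5 tested zinc exporters of the Slc30 family outside the members were not among those called, with 0 at an unadjusted p under 0.05 in edgeR, and of 11 tested zinc importers of the Slc39 family Slc39a14 was the 1 that did. The zinc sensor Mtf1 did not pass.

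Markers of some cell types also differed between 2% iron and 50 ppm, and those of others did not. Of 7 stellate and 4 tested cholangiocyte markers, 0 were called. Among endothelial markers 1 of 5 was called higher, and among tested lymphocyte markers 1 of 4. Of 8 hepatocyte markers, 2 were called lower. All 8 macrophage markers were called higher on 2% iron than on 50 ppm, and their summed level was 516 to 545 CPM on 2% iron, 505 to 771 with cellulose, 114 to 235 on 500 ppm, 122 to 206.5 on 50 ppm and 140 to 178 on chow. The summed level of 5 neutrophil markers was 12.1, 3.26 and 4.00 CPM on 2% iron, 66.2, 6.16 and 8.27 with cellulose, 0.173, 6.59 and 0.361 on 500 ppm, 0.193, 0.583 and 0.741 on 50 ppm, and 0.848, 0.461 and 0.728 on chow. Of the 4 neutrophil markers tested, 0 were called by edgeR between 2% iron and 50 ppm, with 2 at an unadjusted p under 0.05. Of 5 tested erythroid genes, 4 were called higher on 2% iron and 1 lower. In each of the 5 diets the mouse with the highest neutrophil sum was also the one with the highest Mt1. On chow and 50 ppm these sums were at most 0.848 CPM, so they rest on few counts and their order is uncertain. The macrophage sum was highest in the mouse with the highest Mt1 on 2% iron, 500 ppm and 50 ppm. With cellulose and on chow it was highest in mouse 3, and Mt1 in mouse 1. Lcn2, an acute phase gene, stood at 105, 23.2 and 55.2 CPM on 2% iron and at 5.30, 15.3 and 6.58 CPM on 50 ppm. Saa1, also an acute phase gene, ran the other way, at 18.7, 10.3 and 17.2 against 72.0, 122 and 50.9 CPM. Of 13 acute phase genes tested, 3 were called higher on 2% iron and 2 lower. Fkbp5, a glucocorticoid-induced gene, stood at 164, 109 and 122 CPM on 2% iron against 48.4, 72.0 and 74.6 CPM on 50 ppm. The part of these genes and cell markers in the metallothionein levels was not tested. In such bulk samples fewer cells of a type and less RNA per cell cannot be told apart.

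**Figure D2:**
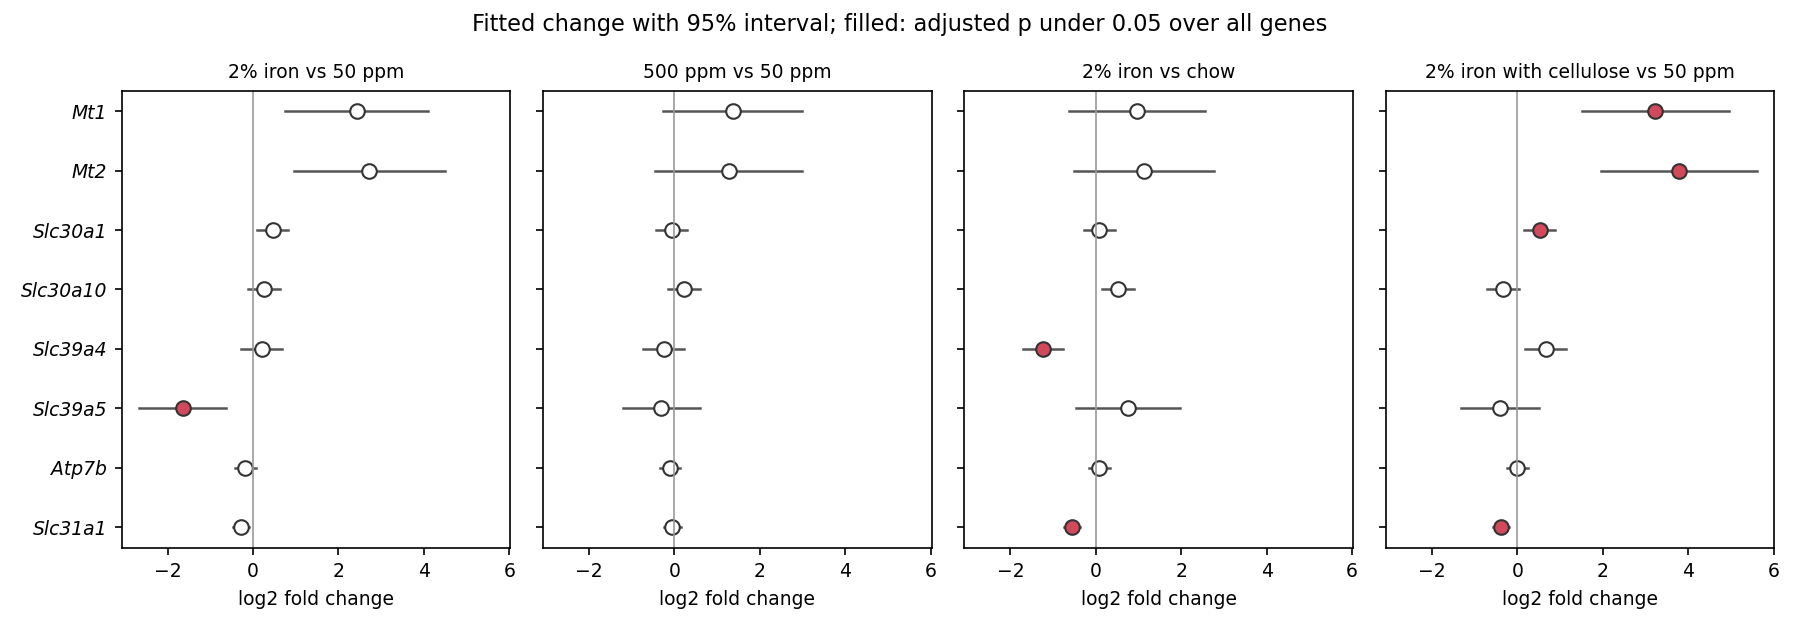
Log2 fold change of each member (rows) in 4 diet comparisons (panels), with 95% intervals from the edgeR fit as bars and filled points for an adjusted p under 0.05 over all genes. Mt1 and Mt2 have the widest bars, and their points are filled in the comparison of 2% iron with cellulose and 50 ppm.

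The cellulose diet gave the clearest metallothionein difference. For 2% iron with cellulose against 50 ppm, 4 of 8 members were called (29.7% of all genes were), 3 higher (15.4% of all genes) and 1 lower (14.3%), and 5 had groups that did not overlap in CPM (44.5% of all genes). The median log2 difference of the members was 0.26 against 0.00459 for all genes. Mt1 rose by 3.24 (SE 0.88, adjusted p 0.0140), from 33.4 ± 14.4 to 315.6 ± 234 CPM (SD, n = 3 each), and Mt2 rose by 3.78 (SE 0.93, adjusted p 0.00818), from 13.6 ± 5.31 to 189 ± 142.02 CPM. All 3 cellulose mice lay above all 3 mice on 50 ppm for both genes. The Mt2 call held in 22 of 22 alternatives and the Mt1 call in 20. Without cellulose mouse 1, the mouse with the highest neutrophil sum, Mt1 differed by 2.41 with an adjusted p of 0.0641, and without 50 ppm mouse 1 by 2.96 with an adjusted p of 0.0612.

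The zinc exporter Slc30a1 stood at 10.5, 8.34 and 9.36 TPM with cellulose and rose by 0.52 (SE 0.19, adjusted p 0.0493), a call that held in 8 of 22 alternatives. It was lost without any 1 of the 3 mice on 50 ppm (adjusted p 0.059, 0.168 and 0.0902 without mice 1, 2 and 3), without cellulose mouse 1 (0.219) or 2 (0.0985), and, with the compared mice kept, without 2% mouse 2 (0.0513) or 3 (0.0603), 500 ppm mouse 1 (0.0591) or any chow mouse (0.0532, 0.0536 and 0.0616). The copper importer Slc31a1 stood at 36.5, 35.7 and 36.4 TPM with cellulose and at 43.1, 38.6 and 46.6 TPM on 50 ppm, and fell by 0.38 (SE 0.10, adjusted p 0.0114). That call held in 19 of 22 alternatives, and without 50 ppm mouse 1 its adjusted p was 0.0582. Slc39a4 differed by 0.66 with an adjusted p of 0.0545 and passed without 500 ppm mouse 2 (0.0284) or 3 (0.0237), with no low-count filter, with at least 10 counts in every library, with DESeq2 and with the 2 groups alone.

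Among the further metal genes 15 of 35 were called with cellulose against 50 ppm, 8 higher and 7 lower. The 10 with the smallest adjusted p were Slc40a1 at 1.90, Slc11a1 at 1.80, Cp at 0.59, Atp7a at 1.01, Sod1 at -0.46, Steap3 at -0.66, Slc39a14 at 0.61, Sco2, a copper chaperone of cytochrome oxidase, at -1.24, Steap4 at 0.84 and Slc30a5, a zinc transporter of the secretory pathway, at 0.44. All 8 macrophage markers and all 4 tested neutrophil markers were called higher in the same comparison.

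Between the diets with 2% iron, no member was called, with 2 at an unadjusted p under 0.05. Of all genes 11 (0.0811%) were called by edgeR, and DESeq2 called 224 genes and no member. The groups overlapped for every member but Slc39a4 (17.5% of all genes did not overlap), which stood at 12.04, 12.6 and 7.84 TPM without and 13.6, 14.8 and 18.3 TPM with cellulose. Mt1 differed by 0.81 (adjusted p 0.711) and Mt2 by 1.07 (adjusted p 0.623), with overlapping groups. These comparisons share the 2% and 50 ppm mice.

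For 500 ppm against 50 ppm, edgeR called no gene (0%), with 428 genes at an unadjusted p under 0.05, and no member reached that. DESeq2 called 2 genes. No member's groups separated, against 7.43% of all genes. The direction for the metallothioneins turned on 1 library: Mt1 differed by 1.36 and Mt2 by 1.27 with all mice, and by -0.56 and -0.47 without 500 ppm mouse 2. That mouse also had 45.02 CPM of Hmox1, the heme-degrading enzyme, against 7.18 and 9.52 CPM in its group mates, 40.6 CPM of Lcn2 against 14.4 and 3.82, and a summed acute phase level of 23878 CPM against 17267 and 14268. The part of these in its metallothionein levels was not tested.

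The same library decided the comparison of 2% iron with 500 ppm. With all mice no member was called by edgeR (11.3% of all genes were) and 3 had an unadjusted p under 0.05. Mt1 differed by 1.06 (adjusted p 0.444) and Mt2 by 1.45 (adjusted p 0.295). Without 500 ppm mouse 2, 3 members were called higher on 2% iron, where 15.9% of 13821 genes were called and 8.78% called higher: Mt1 by 2.98 (adjusted p 0.0157), Mt2 by 3.18 (0.0245) and Slc39a4 by 0.76 (0.0497). With all mice the groups did not overlap in CPM for Slc30a1, Slc39a5 and Slc31a1, 3 members where 30.4% of all genes had such groups. Of the further metal genes 8 passed with all mice, 4 higher (Slc11a1 at 1.83, Slc40a1 at 1.23, Atp7a at 0.76 and Cp at 0.44) and 4 lower (Steap2 at -0.63, Steap3 at -0.58, Slc39a9, a zinc importer, at -0.34, and Sod1 at -0.33).

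The zinc importer Slc39a4 and the copper importer Slc31a1 were highest on chow. Slc39a4 stood at 25.7, 24.7 and 18.9 TPM on chow, at 6.58, 9.44 and 11.1 TPM on 50 ppm, and at 7.74, 9.96 and 4.59 TPM on 500 ppm. The lowest chow mouse lay above the highest mouse of every other diet. Against 2% iron, 2 of 8 members were called, both lower on 2% iron, where 22.8% of all genes were called and 10.9% were called lower. Slc39a4 fell by 1.24 from chow to 2% iron (SE 0.24, adjusted p 0.00261), from 50.8 ± 9.42 to 21.4 ± 4.33 CPM, and Slc31a1 fell by 0.55 (SE 0.10, adjusted p 0.00149), from 187 ± 6.61 to 127 ± 13.5 CPM (SD, n = 3 each).

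Slc31a1 stood at 51.8, 46.9 and 48.8 TPM on chow and 32.7, 41.9 and 35.6 TPM on 2% iron. Against 50 ppm its chow level differed by 0.27 and was not called (adjusted p 0.339), and chow was not tested against 500 ppm or cellulose. Both calls against 2% iron held in all 22 alternatives, and these were the 2 members whose groups did not overlap (40.2% of all genes). In the same comparison 3 of 8 hepatocyte markers were called lower on 2% iron, and 5 of 7 stellate cell markers and all 8 macrophage markers higher. Of 5 tested erythroid genes, 4 were called higher and 1 lower. The hepatocyte sum was 99918 to 102607 CPM on 2% iron and 96680 to 107151 CPM on chow, and the stellate sum 184 to 277 against 131 to 141.3 CPM. Their part in the Slc39a4 and Slc31a1 differences was not tested. The members' median log2 difference between 2% iron and chow was 0.30, against 0.01 for all genes. Mt1 differed by 0.97 (adjusted p 0.434) and Mt2 by 1.13 (adjusted p 0.366) between 2% iron and chow, with chow mouse 1 within the range of the 2% mice. Slc30a10 stood at 11.1, 8.34 and 8.55 TPM on chow and differed by 0.52 (adjusted p 0.0622). It passed without 2% mouse 3 (adjusted p 0.0332), without 50 ppm mouse 2 (0.0443), with DESeq2 (0.0453) and with the 2 groups alone (0.0488). Of the further metal genes 9 were called, 6 higher on 2% iron (Slc40a1 at 1.83, Slc11a1 at 1.84, Slc39a6 at 0.88, Atp7a at 0.66, Cp at 0.66 and Slc39a14 at 0.61) and 3 lower (Steap3 at -1.03, Sod1 at -0.43 and Slc39a9 at -0.40).

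For chow against 50 ppm, 1 member was called, where 0.391% of all genes were and 0.265% were called higher, and 6 members had groups that did not overlap, where 17.3% of all genes had. The members' median log2 difference was 0.32, against 0.00367 for all genes. Slc39a4 rose by 1.44 on chow (SE 0.24, adjusted p 0.0239), with all 3 chow mice above all 3 mice on 50 ppm. The call held in 15 of 22 alternatives. It was lost without any 1 of the mice on 50 ppm (adjusted p 0.0681, 0.122 and 0.106 without mice 1, 2 and 3) and without chow mouse 1 (0.0838) or 2 (0.144), while the log2 difference stayed between 1.28 and 1.59. Mt1 differed by 1.46 (adjusted p 0.612) and Mt2 by 1.59 (adjusted p 0.595). Slc39a5 stood at 0.0516, 0.634 and 0.441 TPM on chow, from 1, 5 and 9 estimated counts, and differed by -2.41 with an adjusted p of 0.0962, which was 0.00827 with DESeq2. Steap2 was the 1 further metal gene called, at -0.99. The labels do not give the zinc, copper or manganese content of the diets.

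Atp7b ranged from 7.34 to 11.3 TPM over the 12 mice on the iron diets and from 5.51 to 8.36 TPM on chow. It passed edgeR's test in 0 of the 7 diet comparisons, with 0 at an unadjusted p under 0.05, and in 0 of them under any of 22 alternatives, DESeq2 and limma among these.

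Across the panel, where every mouse had received 2% iron, the metallothioneins and Slc39a5 varied most. The lowest, median and highest levels over 114 strains were 20.99, 366 and 1823 CPM for Mt1 and 9.04, 198 and 1263 CPM for Mt2. KK/HlJ was the lowest and BXD27/TyJ the highest for both genes, and BXH14/TyJ and BXA11/PgnJ came next from below and NON/ShiLtJ next from above for both. The ratio of the 90th to the 10th percentile was 7.95 for Mt1 and 11.4 for Mt2. Slc39a5 ran from 0.0773 CPM in FVB/NJ through a median of 1.65 to 21.05 CPM in BXA4/PgnJ, with a percentile ratio of 17.3. Its 10th percentile was 0.368 CPM, so its low values rest on few counts and counting error adds to this ratio.

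The other transporters had narrower ranges, apart from Slc30a10. That manganese exporter ran from 3.42 CPM in BALB/cJ through a median of 33.9 to 119 CPM in NOD/ShiLtJ, with a percentile ratio of 4.52. The closely related BALB/cByJ had 13.04 CPM, above BALB/cJ and below the 10th percentile of 14.99 CPM. Slc30a1 ran from 20.8 CPM in C57BLKS/J through 32.6 to 64.5 CPM in BXD74/RwwJ (percentile ratio 1.76), and Slc39a4 from 18.001 in FVB/NJ through 38.9 to 99.9 CPM in I/LnJ (ratio 2.20). Of the copper genes, Atp7b ran from 24.2 CPM in BXH2/TyJ through 61.2 to 98.8 CPM in SWR/J (ratio 1.85) and Slc31a1 from 54.4 in NZB/BlNJ through 145 to 181 CPM in BXD56/RwwJ (ratio 1.68). BXH2/TyJ, lowest for Atp7b, was second lowest for Slc31a1 at 58.8 CPM and among the 4 highest strains for Mt1, at 1185 CPM, and Mt2, at 962 CPM.

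**Figure D3:**
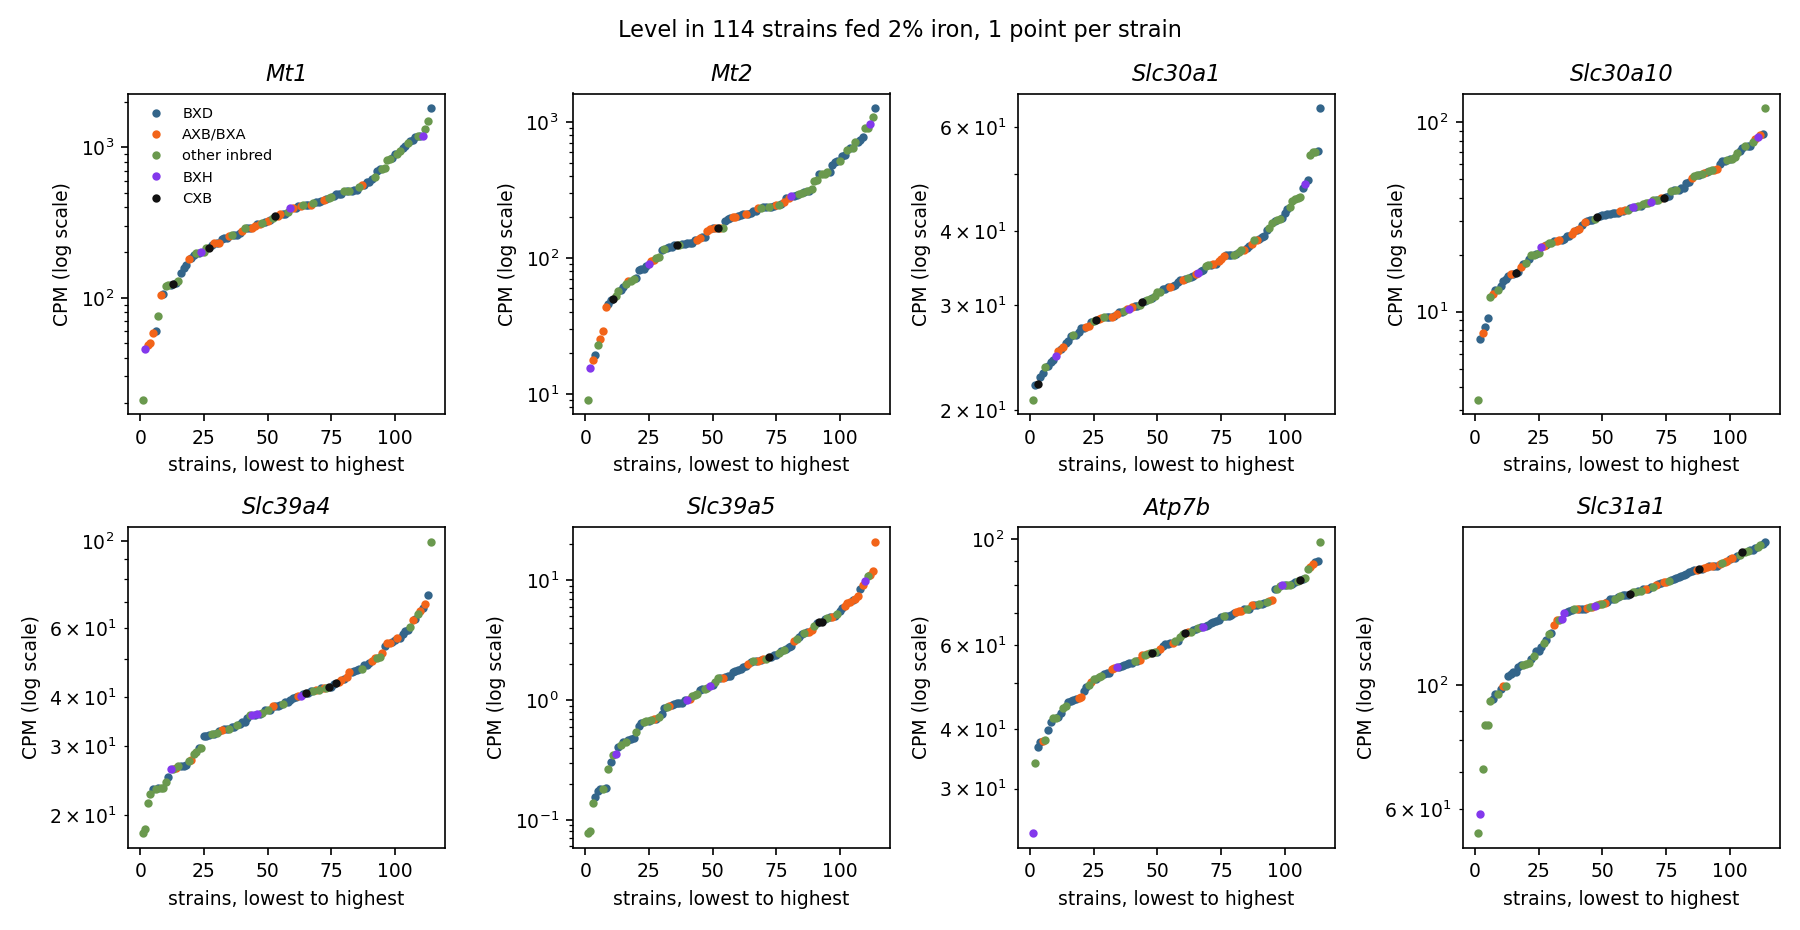
Level of each member in CPM (log axis) in the 114 strains (points, coloured by strain family), ordered from lowest to highest along the horizontal axis. Mt1, Mt2 and Slc39a5 span the widest ranges. The Slc31a1 levels formed separate sets within the BXD strains and not over all strains.

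A strain effect and the difference between single mice cannot be told apart with 1 mouse per strain. In the strain with 2 mice, 129X1/SvJ, Mt1 was 342 and 182 CPM, Mt2 180 and 70.8 CPM, Slc30a10 55.6 and 76.3 CPM, Atp7b 74.2 and 71.8 CPM, and Slc31a1 135 and 141.2 CPM. As a description, the SD of log2 CPM between strains was set against the SD within diets of the diet study, whose tables were made separately. With the SD within diets pooled over all 5 diets, the ratio was 0.980 for Mt1 and 1.02 for Mt2. That pool includes the 500 ppm group, with Mt1 at 35.5, 213 and 10.5 CPM in mice 1, 2 and 3. The ratio was not computed without 500 ppm mouse 2. The pooled ratio was 1.25 for Slc30a1, 1.30 for Slc39a4, 2.16 for Atp7b, 2.20 for Slc39a5, 3.00 for Slc31a1 and 3.32 for Slc30a10. Over 13410 genes the median ratio was 1.66, and 93.7% of genes had a ratio above 1, as 7 of the 8 members did. Against the 6 mice of both 2% diets, with the SD taken within each diet, the ratio was 1.22 for Mt1 and 1.52 for Mt2. Against all 5 diets, it was 0.831 and 0.866 with BXD strains only, and 0.950 and 0.991 on log2(TPM + 1). In each of these last 2 settings 6 members had a ratio above 1, where 89.5% and 92.4% of genes had.

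Parents bounded few BXD strains for Mt1 and more for the other members. For Mt1, C57BL/6J had 339 and DBA/2J 411 CPM, and of 56 BXD strains 23 lay below both, 4 between and 29 above both. Each parent is a single mouse, and this gap was narrower than that between mice of the repeated strain, at 342 and 182 CPM. The Mt1 counts therefore cannot decide whether strains exceed their parents. For Slc31a1 in AXB/BXA strains, 7 lay below both parents, 13 between and 0 above. For Slc39a4 in BXD strains, 11 lay below both parents, 35 between and 10 above. Slc31a1 stood at 140 CPM in C57BL/6J and 174 CPM in DBA/2J, with 21 BXD strains below both, 30 between and 5 above. In that family Slc31a1 fell into separate sets, 15 strains at 94.6 to 124 CPM (median 108) and 41 strains at 135 to 181 CPM (median 155), with no strain between 124 and 135 CPM. No other member formed separate sets in any family by the same rule.

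Between the BXD and AXB/BXA families, which share the parent C57BL/6J, 3 of 8 members were called, where 11.6% of 13794 genes were (6.62% higher and 5.02% lower in BXD), and the members' median log2 difference was -0.02 against 0.00643 for all genes. Mt1 was higher in BXD strains, at 482.6 ± 340 CPM (SD, n = 56) against 280 ± 140 CPM (SD, n = 20), with a log2 difference of 0.79 (SE 0.26, adjusted p 0.0304). Mt2 was higher by 0.86 (SE 0.30, adjusted p 0.0476). Slc39a5 was lower in BXD strains, at 2.05 ± 1.81 against 5.65 ± 4.94 CPM, a log2 difference of -1.45 (SE 0.29, adjusted p 2.42e-04). The groups overlapped for every member, as for all genes (0% did not). Each strain counted as 1 replicate in this test, although strains within a family share ancestry and are not fully independent.

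The Slc39a5 call held in all 6 alternatives. The Mt1 call held in 5 of 7 and the Mt2 call in 4 of 7, and both were lost with limma on log2(TPM + 1) (adjusted p 0.0575 and 0.11). Of the further metal genes 8 were called, 3 higher in BXD strains (Atox1, a copper chaperone, at 0.37, Steap2 at 0.48 and Slc39a11 at 0.23) and 5 lower (Slc39a8 at -0.32, Slc39a9 at -0.19, Mtf1 at -0.18, Sco2 at -0.60 and Ccs, the copper chaperone of Sod1, at -0.25). In the same comparison 6 of 13 acute phase genes were called higher in BXD strains, and their part in the Mt1 and Mt2 difference was not tested.

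Across the 114 strains the 8 members fell into sets that moved together or apart. Correlations of log2 CPM were computed for all 28 pairs, with 100000 permutations each and Benjamini-Hochberg adjustment over the 28. By Pearson's r 21 pairs were called, 10 positive and 11 negative, by Spearman's rho 22, and 22 by r without the 2 strains farthest from the median. The smallest adjusted p the permutations can give here, 2.15e-05, was reached by Mt1 with Mt2, Slc30a1, Slc39a4 and Atp7b, among others. Strains within a family share ancestry and are not fully independent, so values within BXD, AXB/BXA and other inbred strains are given, in that order, beside the pooled ones.

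Mt1 and Mt2 rose and fell together, with r 0.970 and rho 0.955. Within BXD, AXB/BXA and other inbred strains r was 0.967, 0.965 and 0.966. The zinc exporter Slc30a1 followed them, with r 0.731 and rho 0.754 to Mt1 (0.690, 0.809 and 0.774 within the families) and r 0.771 to Mt2. The manganese exporter Slc30a10 was weakly related to Mt1 (r 0.197, adjusted p 0.0487, and 0.0580 on log2(TPM + 1)). Within the families r was 0.261, -0.0450 and 0.261, none called, while rho was called in BXD (0.335, adjusted p 0.0200) and other inbred strains (0.435, adjusted p 0.0300). It was more related to Slc30a1 (r 0.400 over all strains, 0.521 in BXD, and 0.0191 and 0.389, not called by r, in AXB/BXA and other inbred strains). In other inbred strains that relation was called by rho (0.533, adjusted p 0.00675).

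**Figure D4:**
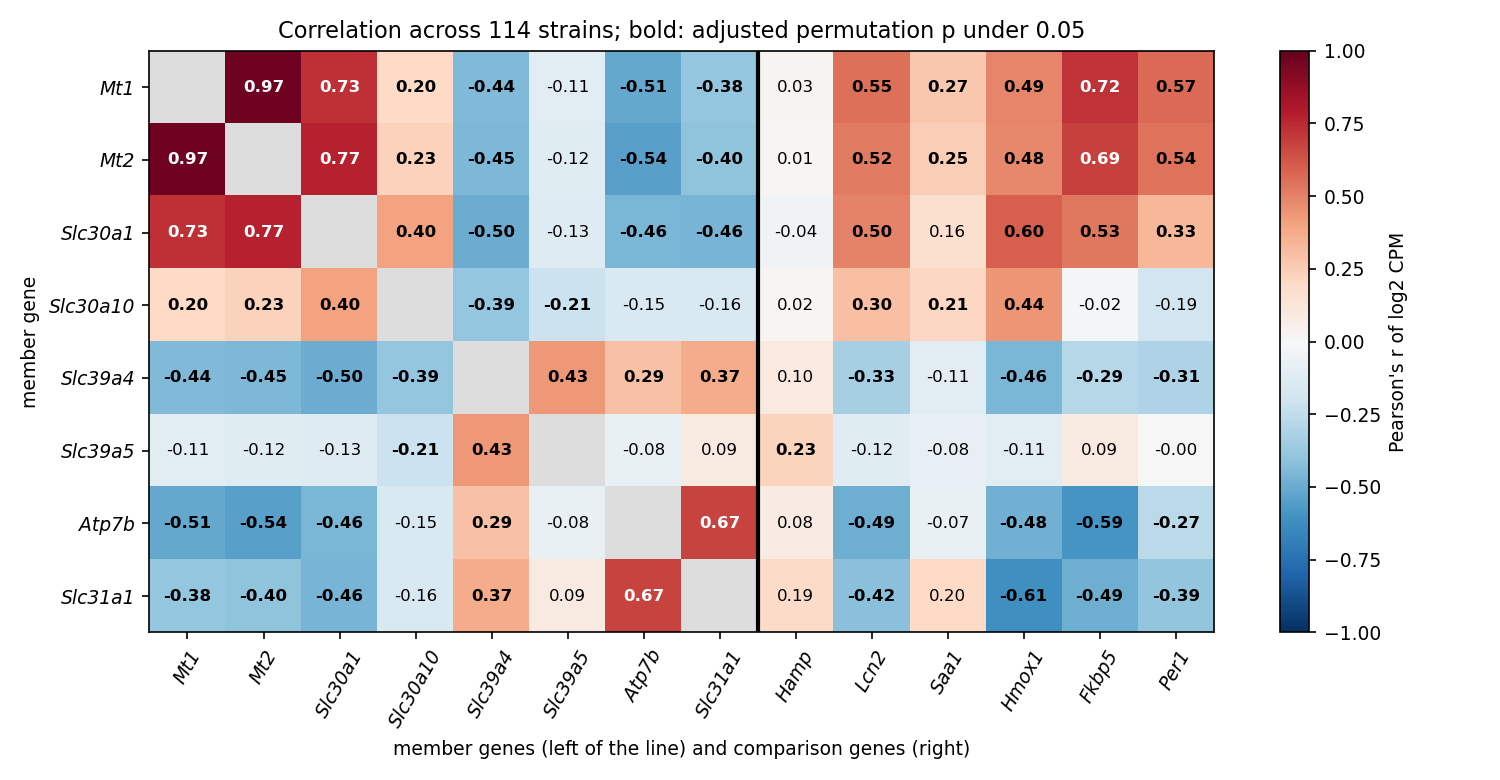
Pearson's r between log2 CPM of each pair of members and of each member with 6 reference genes (right of the line) over 114 strains, with colour from negative to positive, r written in each cell and bold where the adjusted permutation p is under 0.05. Mt1, Mt2 and Slc30a1 form a positive set, Atp7b and Slc31a1 another, and the values between the sets are negative.

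The copper genes went the other way over all strains, less clearly within families for Slc31a1. Its r to Mt1 was -0.384 over all strains, which include the BXD strains with separate sets of Slc31a1 levels. Within AXB/BXA and other inbred strains it was -0.379 (adjusted p 0.233) and -0.255 (adjusted p 0.262), neither called by r. The last was -0.419 (adjusted p 0.0476) without KK/HlJ and C57BLKS/J. Atp7b fell where Mt1 rose, with r -0.512 and rho -0.545 over all strains, -0.786 in BXD and -0.715 in AXB/BXA strains. In the other inbred strains r was -0.106 and not called (adjusted p 0.571). Without KK/HlJ and C57BLKS/J, the 2 farthest from the median of Mt1, it was -0.300 (adjusted p 0.144). The difference between families was not tested. With Mt2 the values were -0.541 over all strains and -0.771, -0.757 and -0.178 within the families, the last -0.361 (adjusted p 0.0834) without its 2 farthest strains. Atp7b and Slc31a1 were positively related, with r 0.674 over all strains, 0.604 in AXB/BXA and 0.726 in other inbred strains. The AXB/BXA value was 0.309, with an adjusted p of 0.423, without the 2 strains farthest from the median. In BXD strains no pooled r is given for Slc31a1 because its levels form separate sets, and within the sets 0 of its 14 relations were called by r or rho. The relation to Slc39a5 in the upper set (r -0.318, rho -0.316, n = 41) was the 1 at an unadjusted permutation p under 0.05, with an adjusted p of 0.474 for r.

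The zinc importer Slc39a4 was negatively related to Mt1 (r -0.444 over all strains, -0.310 in BXD, -0.425, not called, in AXB/BXA and -0.525 in other inbred strains) and to Slc30a1 (r -0.496, with -0.396, -0.440, not called, and -0.547 within the families). Without the 2 farthest strains the relation to Mt1 in BXD was -0.253 and not called (adjusted p 0.0982). The relation to Slc30a1 over all strains was -0.174 and not called (adjusted p 0.0853) on log2(TPM + 1). Slc39a4 and Slc39a5 were positively related (r 0.430 over all strains, 0.479 in BXD, 0.437 in other inbred and -0.102, not called, in AXB/BXA strains). The value in other inbred strains was 0.375 and not called (adjusted p 0.0748) without the 2 farthest strains. Slc39a5 had no called relation to Mt1, Mt2 or Slc30a1, and its relation to Slc30a10 (r -0.213, adjusted p 0.0326) was lost without the 2 strains farthest from the median (r -0.144, adjusted p 0.139).

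**Figure D5:**
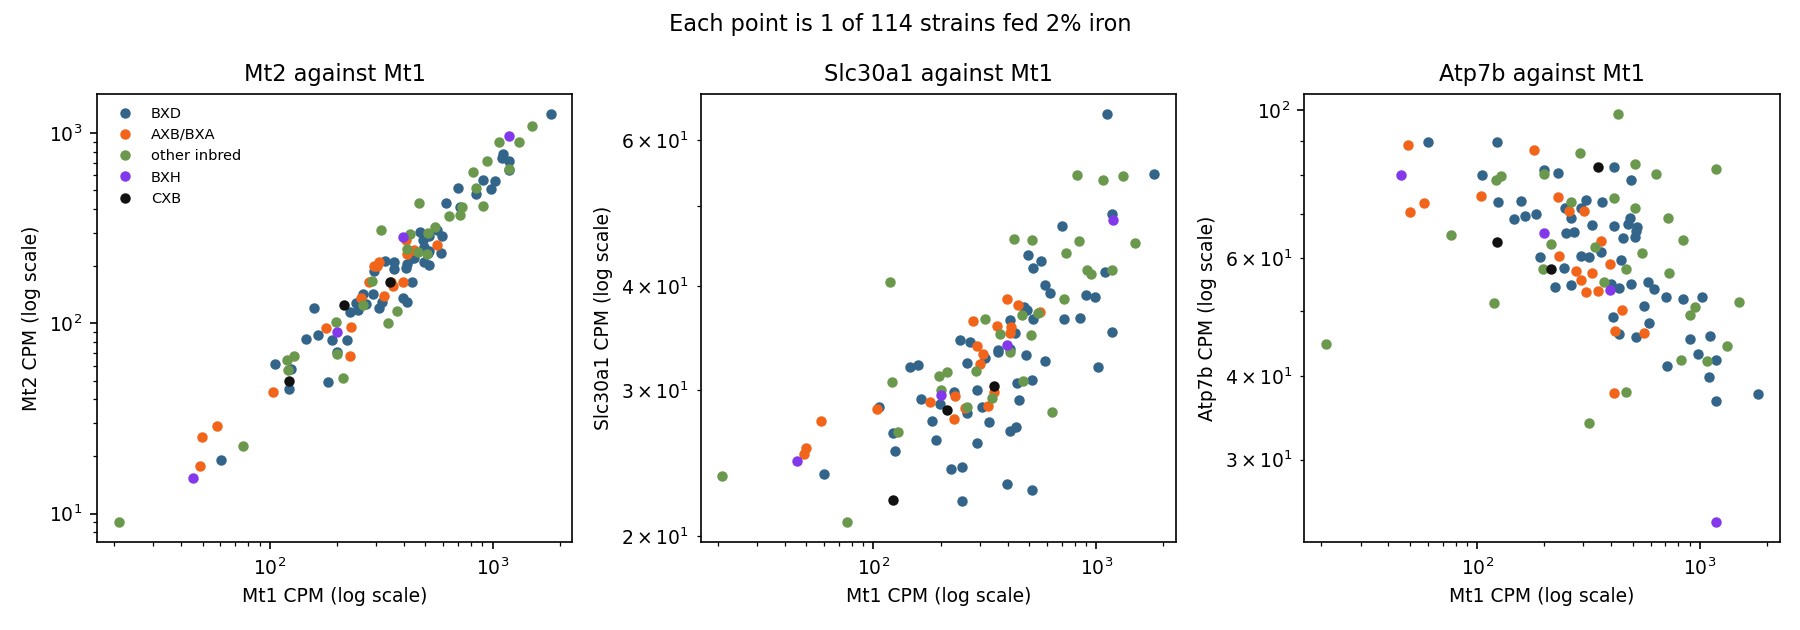
Level of Mt2, Slc30a1 and Atp7b (vertical axes) against Mt1 (horizontal axes) in CPM on log axes over the 114 strains (points, coloured by family). The Mt1 and Mt2 points lie along 1 line in every family, and the Mt1 and Atp7b points slope downward with more scatter.

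Relations of the 8 members to 6 reference genes, which stand for hepcidin, acute phase, heme, glucocorticoid and clock signals, were computed over the same strains, and 30 of 48 were called, 18 positive and 12 negative (29 by rho). Mt1 was related to Fkbp5 with r 0.721 (0.737, 0.714 and 0.703 within BXD, AXB/BXA and other inbred strains), to Per1, a clock gene that glucocorticoids also raise, with r 0.570 (0.411, 0.547, not called, and 0.675). Its r to Lcn2 was 0.550, with 0.583 in BXD and 0.548 and 0.334, neither called by r, in AXB/BXA and other inbred strains, the last 0.492 (adjusted p 0.0314) without its 2 farthest strains. Its r to Hmox1 was 0.488, with 0.451, 0.342, not called, and 0.455 within the families. Slc30a1 was related to Hmox1 with r 0.596 (0.463, 0.472, not called, and 0.709). Slc31a1 and Atp7b had the opposite sign. Between Slc31a1 and Hmox1 r was -0.611, with -0.622 in AXB/BXA and -0.526 in other inbred strains, neither called without its 2 farthest strains (adjusted p 0.255 and 0.0537). Between Atp7b and Fkbp5 r was -0.588, with -0.746 in BXD and -0.583 and -0.381, neither called by r, in AXB/BXA and other inbred strains. Hamp, the gene of the iron hormone hepcidin, was called with 1 member, Slc39a5 (r 0.225, adjusted p 0.0272, rho 0.163 not called). Within families 17 of 42 tested relations were called in BXD, 16 of 48 in other inbred and 4 of 48 in AXB/BXA strains, and in AXB/BXA 0 were left without the 2 strains farthest from the median, by the same permutation test, while 18 had an unadjusted p under 0.05 with all strains.

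The genes most like each member over the 114 strains, by r of log2 CPM among 13923 genes, are given as a description. For Mt1 they were Mt2, Slc39a14 (r 0.735, rho 0.714) and Slc30a1, and for Mt2 they were Mt1, Slc30a1 and Slc39a14 (r 0.721, rho 0.696). For Slc30a1 they were Mt2, Mt1 and Mmp14 (r 0.669, rho 0.675). The other members had no member among their 3 nearest genes. Slc30a10 was most like Mical2 (r 0.729), St3gal1 (0.710) and Slc16a1 (0.706), Slc39a4 most like Ccnd1 (0.580), Scap (0.576) and Fads2 (0.576), and Slc39a5 most like Aldh3a2 (0.605), Nmt2 (0.520) and Acot3 (0.518). Atp7b was most like Tert (0.803), Nr3c2 (0.771) and Klhdc7a (0.768), and Slc31a1 most like Cyp2d40 (0.878), Zdhhc9 (0.872) and Ghr (0.853). All these values share libraries and depth.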

How the data were processed

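Liver RNA was sequenced from 15 diet study and 115 panel mice. Per the submitters' processing notes, kallisto 0.46 and mm10 were used. The deposited files hold the estimated counts per gene that the authors made, and TPM values per gene that the authors made from them. The annotation release of the diet tables and the strand setting are not given in the sources used here. Names from the reference tables matched 34845 of 35274 genes in the diet tables and 35612 of 35711 in the panel tables. No pair of libraries was identical.

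Estimated counts were rounded and tested with edgeR 4.0.16 (R 4.3.3): TMM normalization, filterByExpr, the quasi-likelihood test and Benjamini-Hochberg adjustment over all genes tested (13560 in the diet study, 13794 for BXD against AXB/BXA), with a threshold of 0.05. The 7 diet contrasts share 1 fit of 5 groups and share control mice. The fit was tested on simulated data. CPM are on TMM library sizes, with a prior count of 2 on the log2 scale, and the 2 mice of 129X1/SvJ were averaged in relations across strains. Alternatives were other size factors, low-count filters, DESeq2 1.42.0, limma 3.58.1 on log2(TPM + 1) and log2(TPM + 0.1), fits of the compared groups alone, and each diet mouse left out in turn. Correlations used Python 3.11.15 and scipy 1.17.1. A gene formed separate sets in a family where a fit of 2 normal distributions had Ashman's D above 3, a gain in BIC above 10 and at least 3 strains in each set. Nothing says whether mice shared a cage or day, and p-values measure the spread between these mice. The members, the marker and metal gene lists and the comparisons were chosen with earlier results of these data known. The text names all members, the further metal genes called in each contrast (at most the 10 with the smallest adjusted p) and, for each member, the 3 genes most correlated with it, without predicted genes and pseudogenes.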

Additional observations from a re-analysis of the deposited data

Results flagged for a closer look

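In the 4 BXH strains, 1 strain stood far from the others in a pair of members. Slc39a5 was 9.8 CPM in BXH10/TyJ, against 0.352, 1.01 and 1.31 CPM in the other 3 strains. Slc31a1 was 58.8 CPM in BXH2/TyJ, against 132, 135 and 139 CPM. In each case the gap to the nearest strain exceeded Dixon's 95% critical value for 4 samples. Chance gives such a gap in about 1 in 20 groups when a single gap is examined. These gaps were picked by that rule from among the members, so finding at least 1 by chance is more likely than that. The rule was applied to CPM without a log scale, and each strain is 1 mouse.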

How the results depend on the processing

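Of 1278 single-member values under alternatives, 1182 kept their direction and side of the threshold, 40 lost the call, 27 gained it and 29 changed sign, none of these called in either fit. Of the sign changes in values given above, those of Mt1 and Mt2 in 500 ppm against 50 ppm came without 500 ppm mouse 2. Leaving out 1 mouse at a time, the log2 difference ran from -0.56 to 1.89 for Mt1 and from -0.47 to 1.82 for Mt2. The member count for 2% iron against 50 ppm (1) was 3 with no filter, 0 with at least 10 counts in every library, 4 with DESeq2, 0 with limma on log2(TPM + 0.1), 3 with the 2 groups alone and 0 to 3 leaving out 1 mouse. For 2% iron against 500 ppm (0) it was 0 to 3 leaving out 1 mouse. For chow against 50 ppm (1) it was 2 with DESeq2, 0 with either limma fit and 0 to 1 leaving out 1 mouse. For cellulose against 50 ppm (4) it was 2 with either limma fit and 1 to 5 leaving out 1 mouse. For BXD against AXB/BXA (3) it was 1 with either limma fit. The cause was not tested. Over all genes, limma on log2(TPM + 1) called 1190 in 2% iron against 50 ppm, 806 of them higher, where edgeR called 2127, 1155 of them higher. Between the 2% diets edgeR's 11 genes became 51 with no filter, 26 with at least 10 counts, 224 with DESeq2 and 0 without cellulose mouse 2, and in chow against 50 ppm its 53 became 147 with DESeq2 and 14 with limma on log2(TPM + 1). Depth limits Slc39a5, at 1 to 35 estimated counts per diet study library. No paired analysis was possible because the labels give no replicate numbers.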
